A study of Mus musculus with 8 samples.

Results

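Genes of DNA replication and nucleotide synthesis were compared over 3 lymphoid progenitor populations of the mouse fetal liver. The set holds 43 genes, taken by symbol from the deposited table of 34745 genes, and all 43 passed the filter on low counts that left 13436 genes. Bulk RNA had been sequenced from sorted live, untreated B6 WT cells that were lineage-negative, CD45+, CD127+ and CD25-. The 3 CLP libraries came from Flt3+ cells, the 3 ILCP libraries from α4β7+ cells without Flt3 that were PD-1+ and CD94-, and the 2 ILC1/3P libraries from α4β7+ cells without Flt3 that were PD-1- and CD94+. Fetal liver is the labelled tissue, but an age of 6 to 8 weeks stands in another label, which a fetal tissue does not have, and no fetal stage is given. No label says that libraries of a group came from separate animals, so p-values reflect only how far these libraries spread, which may be technical variation. In bulk RNA, fewer cells in S phase and less of an RNA per cell cannot be told apart.

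In G1, the origin recognition complex, Cdc6 and Cdt1 load the ring of Mcm2 to Mcm7 onto DNA, the step called licensing. In S phase, Cdc45 and the GINS complex turn that ring into the active helicase, polymerase alpha with primase lays down primers, and polymerases delta and epsilon extend them on the sliding clamp Pcna, which the RFC complex loads. Thymidylate synthase, thymidine kinase, dUTPase and ribonucleotide reductase keep up the supply of deoxynucleotides. Many of these genes are transcribed at the G1 to S transition under E2F factors, and fetal lymphoid progenitors are known to divide.

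The promoters of 5 members called in different comparisons are shown. Mcm2 and Mcm6 were called lower in ILCP than in CLP, and Mcm5, Pola1 and Tyms were called higher in ILC1/3P than in ILCP. These calls do not set their directions apart. Mcm5, Pola1 and Tyms had fitted log2 fold changes of -1.08, -0.94 and -0.05 in ILCP against CLP, not called. In ILC1/3P against ILCP, Mcm2 was fitted at 1.01 and Mcm6 at -0.32, also not called. Each sequence is the 180 bases before the annotated transcription start in RefSeq (GRCm38.p6), 5′ to 3′ on the gene's own strand: Mcm6 chr1:128359706-128359885 (-), Mcm5 chr8:75109329-75109508 (+), Mcm2 chr6:88898781-88898960 (-), Pola1 chrX:93632156-93632335 (-) and Tyms chr5:30073626-30073805 (-). Capitals mark E2F letters (the run TTCCCGC and its variants: the run TTGGCGC, the run TTCGCGC and the run TTGCCGC), the letters TTTGAA of the cell cycle homology region and the CCAAT box, each searched on both strands, and overlapping matches run together.
Mcm6: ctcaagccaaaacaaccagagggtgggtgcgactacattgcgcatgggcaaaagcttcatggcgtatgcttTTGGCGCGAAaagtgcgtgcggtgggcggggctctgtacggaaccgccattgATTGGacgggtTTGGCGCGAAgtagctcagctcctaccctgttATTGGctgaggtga
Mcm5: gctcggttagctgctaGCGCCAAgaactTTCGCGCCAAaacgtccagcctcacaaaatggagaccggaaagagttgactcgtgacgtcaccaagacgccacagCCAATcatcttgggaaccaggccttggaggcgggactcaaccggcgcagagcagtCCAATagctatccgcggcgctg
Mcm2: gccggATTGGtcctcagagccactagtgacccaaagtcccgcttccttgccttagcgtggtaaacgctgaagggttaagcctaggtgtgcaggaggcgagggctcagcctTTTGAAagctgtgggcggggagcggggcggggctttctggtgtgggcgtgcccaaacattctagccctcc
Pola1: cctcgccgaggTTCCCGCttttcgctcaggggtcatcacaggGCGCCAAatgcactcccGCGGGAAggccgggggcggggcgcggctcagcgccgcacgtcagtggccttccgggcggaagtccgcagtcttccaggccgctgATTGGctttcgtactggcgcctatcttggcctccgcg
Tyms: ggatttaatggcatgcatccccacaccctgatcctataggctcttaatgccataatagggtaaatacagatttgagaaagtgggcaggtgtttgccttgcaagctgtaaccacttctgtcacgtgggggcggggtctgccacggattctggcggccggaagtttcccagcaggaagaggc

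Mcm6 held 2 copies of TTGGCGC, each overlapping TTCGCGC on the other strand, and Pola1 held 2 of TTCCCGC and 1 of TTGGCGC. Mcm2 and Tyms held none of the E2F letters in these bases, and Tyms held no CCAAT box either. In the 300 bases around each start (250 before and 50 after), 21 of the 36 members with a RefSeq window (58.3%) held E2F letters, against 9.72% of 27025 promoters. Of the members, 27.8% held 2 or more such matches, against 1.23% of all promoters. TTTGAA was in 11.1% of member windows and 18.2% of all promoters, and in 70.6% of 34 windows of mitosis genes. CCAAT was in 63.9% of member windows and 38.0% of all promoters. E2F letters were in 4 of 9 windows of members called higher in ILC1/3P than in CLP and in 17 of 27 windows of the other members. A match is a description of letters, not a bound site. Gins1, Gins2, Gins4, Mcm4, Pole, Prim2 and Rfc2 were not among the windows.

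Levels are given as CPM, counts relative to the TMM-scaled library size. Total counts ran from 4991939 to 8082476 per library, and all 8 libraries carry 1 batch date. Of the genes whose products were gated on, Flt3 peaked in CLP, Pdcd1 in ILCP and Klrd1 in ILC1/3P. RNA for other gates did not all follow the sort. For α4β7, Itga4 averaged 371, 442 and 134 CPM in CLP, ILCP and ILC1/3P, and Itgb7 3.94, 72.9 and 52.55 CPM. For CD127, Il7r averaged 434, 484 and 215 CPM in the same order. Il2ra, for CD25, averaged 0, 7.6 and 2.30 CPM. TMM scaling factors were 1.09 to 1.23 in CLP, 1.05 to 1.17 in ILCP and 0.671 to 0.753 in ILC1/3P, so ILC1/3P levels depend on the scaling more than the others. With library size as the only scaling, the median log2 fold change of all genes moved from -0.25 to -0.93 for ILC1/3P against CLP and from -0.23 to -0.86 for ILC1/3P against ILCP.

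Replication genes took the smallest share of the RNA in ILCP, and some of them rose in ILC1/3P. Members took 0.465% to 0.629% of all counts in CLP, 0.312% to 0.398% in ILCP and 0.540% to 0.648% in ILC1/3P, so the ILCP libraries lay below all others. Between ILCP and CLP, 0 members were called higher and 2 lower of 43 (edgeR quasi-likelihood test, Benjamini-Hochberg adjusted p under 0.05), against 3.91% higher and 2.87% lower among all genes tested (6.79% in either direction). The 2 called members were Mcm2 and Mcm6. Fitted changes were below 0 for 39 of 43 members (90.7%, against 49.6% of all genes), with a median of -0.63 on the log2 scale against 0.01 for all genes. In 16 members every ILCP library was below every CLP library (37.2%, against 14.0% of all genes), and in 0 members was every ILCP library above (14.1% of all genes). Unadjusted p was under 0.05 for 15 members (34.9%, against 20.1% of all genes).

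ILC1/3P differed from CLP in both directions. Of 43 members, 10 were called higher and 3 lower, against 11.8% and 11.7% of all genes (23.5% in either direction). The median change was 0.45 against -0.25 for all genes, and with library size only it was -0.22 against -0.93, so its sign depends on the scaling while its distance from the median of all genes was 0.70 in both. With library size only, 6 members were called higher and 6 lower, where that scaling called 7.04% of all genes higher and 20.9% lower. The median was -0.09 without ILC1/3P replicate 1, where the median of all genes was -0.50. No overlap between the libraries was seen for 18 members that were higher (background 23.3%) and 7 that were lower (background 29.1%).

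Against ILCP, 14 of 43 members were called higher in ILC1/3P and 0 lower, where 8.06% of all genes were called higher and 8.25% lower (16.3% in either direction). The median change was 1.01 against -0.23 for all genes, or 0.38 against -0.86 with library size only, which called 10 members higher and 2 lower, beside 3.53% and 15.9% of all genes. Both ILC1/3P libraries lay above every ILCP library in 27 members (background 20.2%) and below in 1 (background 24.7%). The comparisons with ILC1/3P use the same 2 libraries of that group, so they are not independent of each other. In all, 18 members were called in at least 1 comparison.

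**Figure D1:**
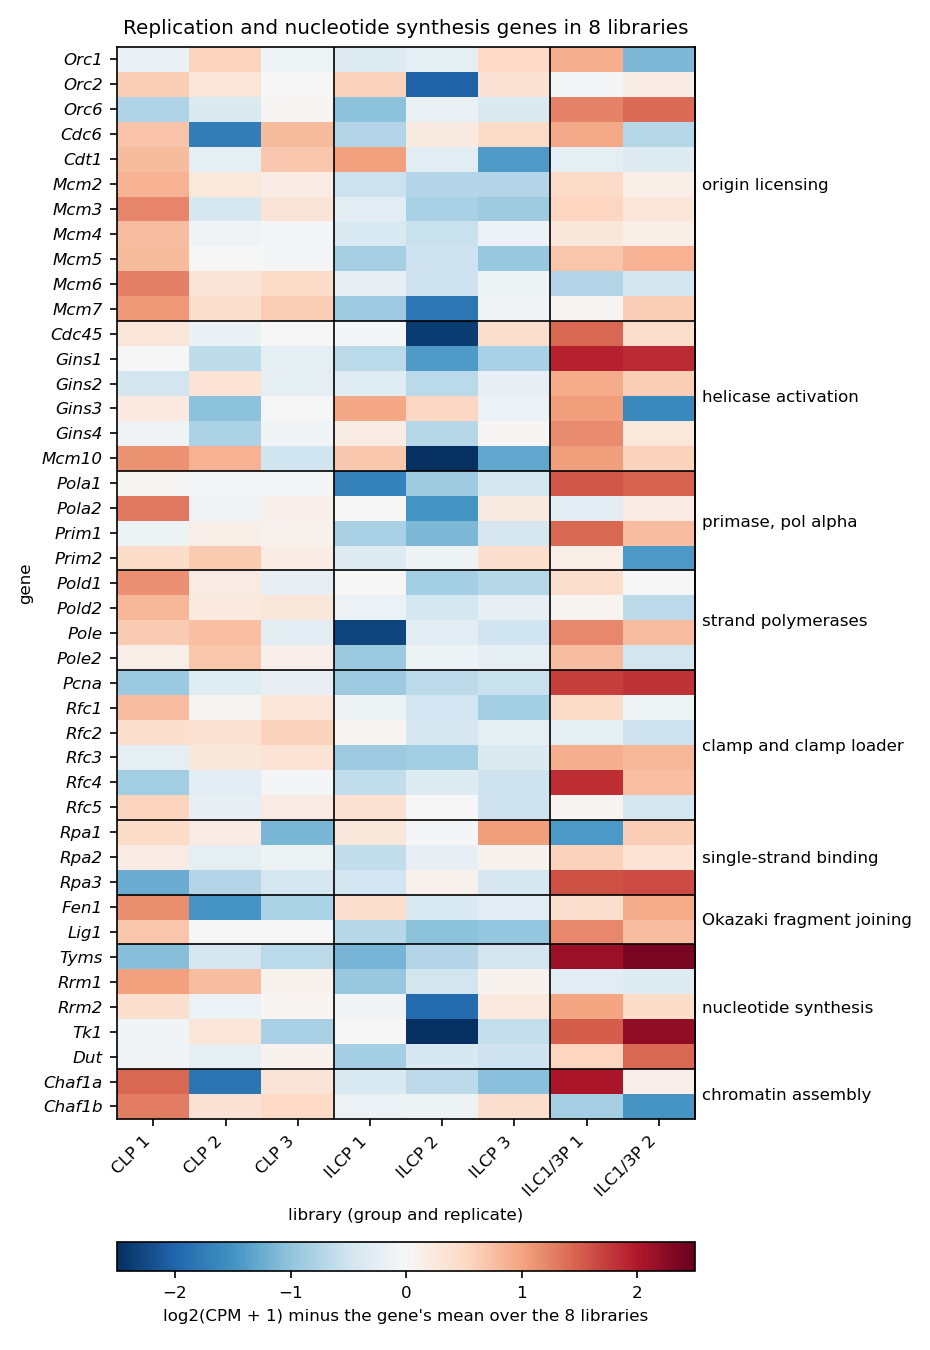
Levels of the 43 genes in each of the 8 libraries, as log2(CPM + 1) minus the gene's mean over libraries, with rows grouped by role and columns by population. Fitted levels of 39 rows are lower in ILCP than in CLP, and rows such as Tyms, Pcna and Rpa3 are high in both ILC1/3P libraries while Mcm6 and Chaf1b are low there.

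**Figure D2:**
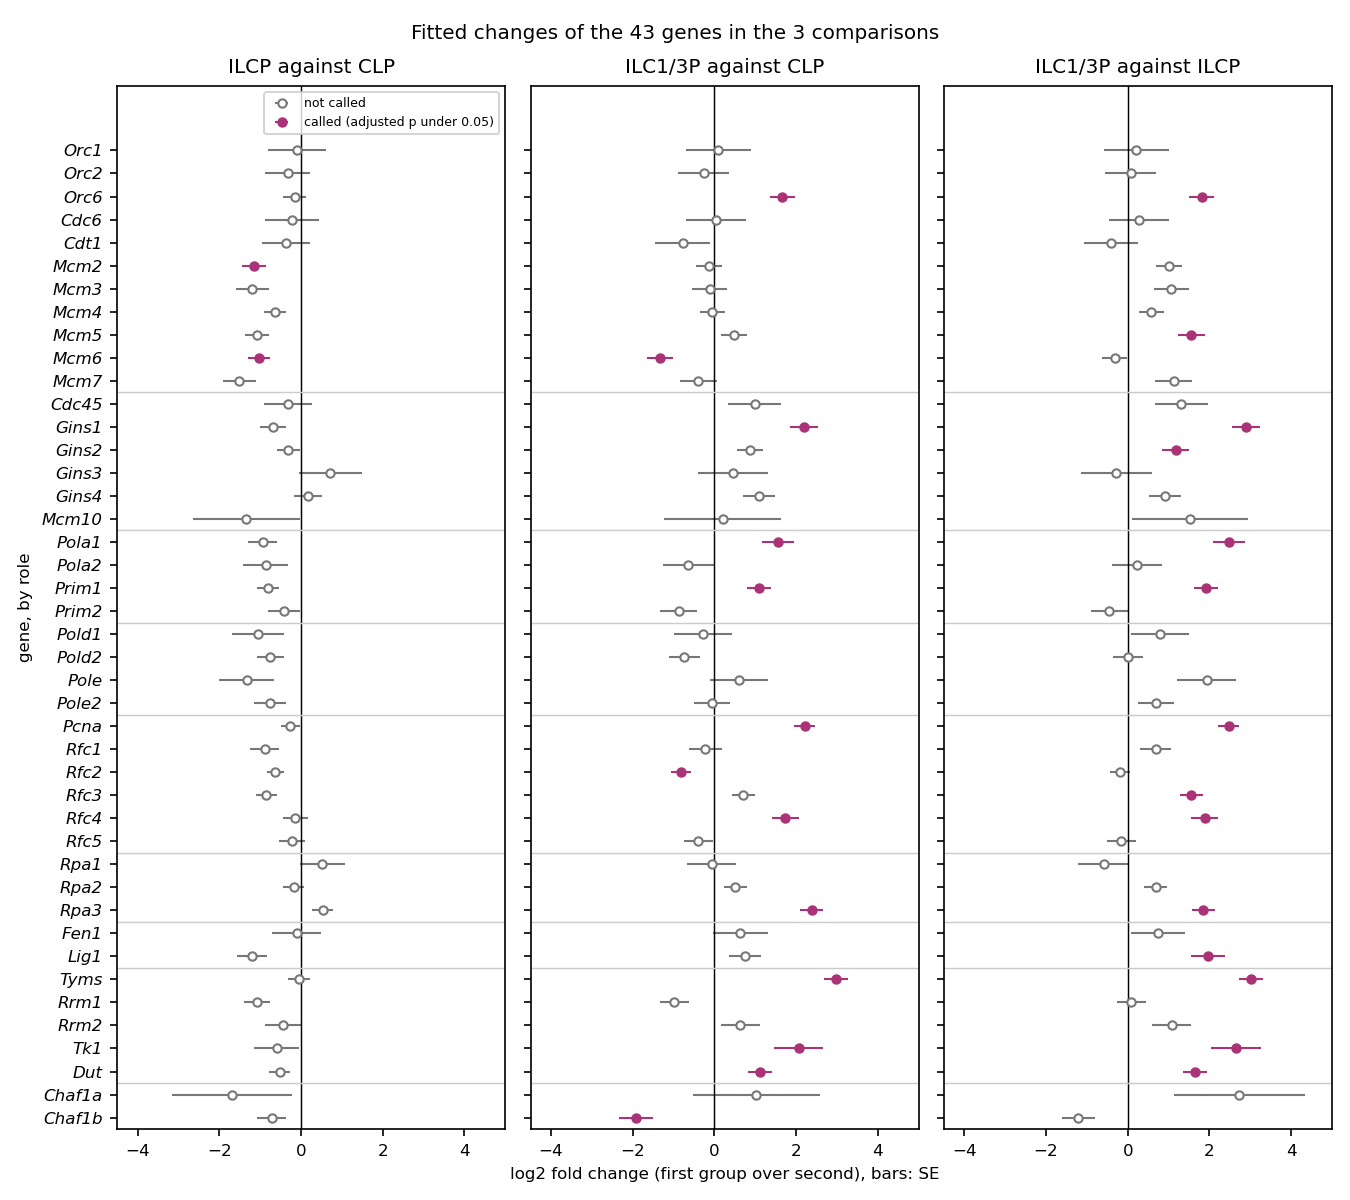
Log2 fold change with its SE for each of the 43 genes in the 3 comparisons, with filled points for called genes. Of the points, 2 are filled between ILCP and CLP, 13 between ILC1/3P and CLP and 14 between ILC1/3P and ILCP.

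Of the 11 licensing genes, 2 fell (18.2%, beside 2.87% of all genes) and 0 rose (beside 3.91%) between CLP and ILCP. Between CLP and ILC1/3P 1 rose and 1 fell (9.09% each), below the 11.8% and 11.7% of all genes. Between ILCP and ILC1/3P 2 rose (18.2%, beside 8.06%). The shares of all genes are the background of each further role as well. Orc6 (chr8:85299632-85308278 on mm10), a subunit of the origin recognition complex, had 108, 142 and 188 CPM in the CLP libraries, 89.2, 164 and 142 CPM in the ILCP libraries, and 433 and 489.8 CPM in the ILC1/3P libraries. Both ILC1/3P libraries lay above all others. Its log2 fold change in ILC1/3P was 1.66 ± 0.31 against CLP (SE, edgeR adjusted p = 0.00272) and 1.81 ± 0.31 (adjusted p = 0.00309) against ILCP. Orc1 and Orc2, further origin recognition subunits, and the loaders Cdc6 and Cdt1 were called in no comparison, with fitted changes of -0.37 to -0.11 for ILCP against CLP and -0.78 to 0.10 for ILC1/3P against CLP.

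Of the 6 MCM helicase genes, Mcm2 and Mcm6 fell from CLP to ILCP, Mcm5 rose from ILCP to ILC1/3P, and Mcm6 was also lower in ILC1/3P than in CLP. Mcm2 (chr6:88883474-88898780) had 124, 81.5 and 76.9 CPM in the CLP libraries, 46.4, 40.4 and 40.4 CPM in the ILCP libraries, and 94.7 and 76.1 CPM in the ILC1/3P libraries. All ILCP libraries lay below all others, and the ILC1/3P libraries overlapped those of CLP. Mcm2 fell in ILCP, with a log2 fold change of -1.15 ± 0.29 (edgeR adjusted p = 0.0347). Mcm6 (chr1:128331590-128359664) had 566, 297 and 324 CPM in the CLP libraries, 204, 166 and 217 CPM in the ILCP libraries, and 143 and 171 CPM in the ILC1/3P libraries. Its levels were highest in the CLP libraries, and the ILCP and ILC1/3P libraries overlapped. Mcm6 fell relative to CLP in ILCP, at -1.02 ± 0.27 (adjusted p = 0.0482), and in ILC1/3P, at -1.34 ± 0.32 (adjusted p = 0.0103).

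Mcm5 (chr8:75109528-75128439) had 137, 78.6 and 76.9 CPM in the CLP libraries, 43.8, 54.6 and 40.3 CPM in the ILCP libraries, and 128 and 144 CPM in the ILC1/3P libraries. The ILC1/3P libraries lay above the ILCP libraries and overlapped CLP, and the change against ILCP was 1.56 ± 0.33 (adjusted p = 0.0083), while against CLP it was 0.48 ± 0.33 (adjusted p = 0.319), which did not pass. Mcm2, Mcm3, Mcm4, Mcm5 and Mcm7 had every ILC1/3P library above every ILCP library, and in 5 of the 6 genes, all but Mcm3, every ILCP library lay below every CLP library. Mcm3, Mcm4 and Mcm7 were called in no comparison, and Mcm7 came nearest in ILCP against CLP, at -1.51 ± 0.41 (adjusted p = 0.0508). CLP replicate 1 was the highest CLP library for all 6 genes. On leaving out any 1 CLP or ILCP library the ILCP calls of Mcm2 and Mcm6 were lost (highest adjusted p = 0.141 and 0.161), as they were with library size only, and the Mcm6 call in ILC1/3P did not survive leaving out ILC1/3P replicate 1 (adjusted p = 0.0634). The Mcm5 call was lost with library size only (adjusted p = 0.0914).

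**Figure D3:**
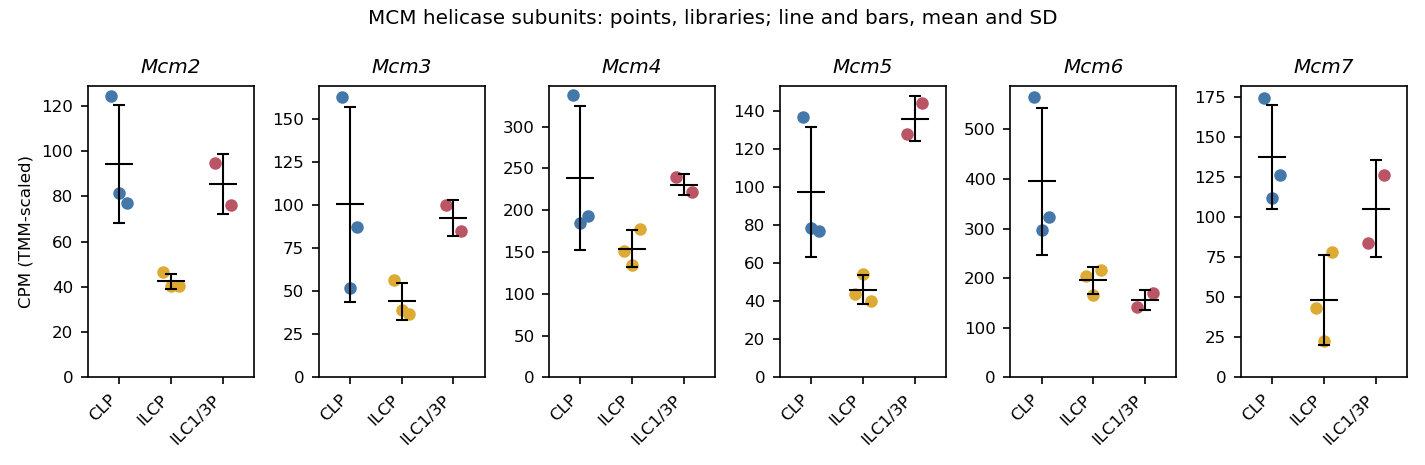
CPM of the 6 MCM genes in each library by population, with points for libraries and the mean and SD of the group as a line with bars. Mcm6 falls from 297 to 566 CPM in CLP to 143 to 171 CPM in ILC1/3P, while Mcm5 reaches 128 and 144 CPM in ILC1/3P.

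Of the 6 genes of helicase activation, 0 were called between ILCP and CLP. In ILC1/3P, 1 rose against CLP (16.7%, beside 11.8% of all genes) and 2 against ILCP (33.3%, beside 8.06%). Gins1 (chr2:150905400-150931280), a subunit of the GINS complex that holds Cdc45 on the helicase, had 46.7, 29.8 and 39.4 CPM in the CLP libraries, 28.9, 16.9 and 26.3 CPM in the ILCP libraries, and 182 and 174 CPM in the ILC1/3P libraries. The ILC1/3P libraries were above every other library, and the ILCP libraries were below those of CLP. The change in ILC1/3P was 2.20 ± 0.34 (adjusted p = 0.000798) against CLP and 2.89 ± 0.35 (adjusted p = 0.0005) against ILCP, or 7.39-fold. Gins2 (chr8:120578633-120589304), another GINS subunit, had 63.8, 112 and 75.7 CPM in the CLP libraries, 71.5, 54.9 and 76.6 CPM in the ILCP libraries, and 169.6 and 136 CPM in the ILC1/3P libraries. Again the ILC1/3P libraries were above all others. It rose against ILCP by 1.17 ± 0.32 (adjusted p = 0.0268). That call was lost under library-size scaling, and also on leaving out any 1 ILCP library or ILC1/3P replicate 1 (adjusted p of up to 0.261). Cdc45, Gins3, Gins4 and Mcm10, which helps to fire the loaded helicase, were not called, with changes of 0.20 to 1.09 in ILC1/3P against CLP.

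Within polymerase alpha and primase, the catalytic subunits Pola1 and Prim1 rose in ILC1/3P and their partners Pola2 and Prim2 did not pass. Pola1 (chrX:93304767-93632155) had 38.3, 37.2 and 37.1 CPM in the CLP libraries, 11.1, 20.0 and 27.6 CPM in the ILCP libraries, and 112 and 107 CPM in the ILC1/3P libraries. The ILC1/3P libraries were the highest and the ILCP libraries the lowest, with no overlap between groups. The change was 1.55 ± 0.39 (adjusted p = 0.0143) against CLP and 2.48 ± 0.40 (adjusted p = 0.00225) against ILCP. Prim1 (chr10:128015168-128030037), the primase subunit that makes the RNA primer, had 186, 224 and 218 CPM in the CLP libraries, 115, 92.2 and 152 CPM in the ILCP libraries, and 551 and 347 CPM in the ILC1/3P libraries. It showed the same order of groups, again without overlap. Its change was 1.10 ± 0.29 (adjusted p = 0.0158) against CLP and 1.91 ± 0.29 (adjusted p = 0.0016) against ILCP. Pola2 changed by -0.64 ± 0.62 (adjusted p = 0.499) and Prim2 by -0.87 ± 0.45 (adjusted p = 0.189) in ILC1/3P against CLP. The calls against CLP were lost without ILC1/3P replicate 1 (Pola1 and Prim1) and without CLP replicate 1 (Prim1), and both were lost with library size only (highest adjusted p = 0.135 and 0.282).

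No gene of polymerases delta and epsilon was called in any comparison. Pole, the catalytic subunit of the leading strand polymerase, had 20.6, 22.6 and 10.5 CPM in the CLP libraries, 1.85, 10.6 and 8.87 CPM in the ILCP libraries, and 31.4 and 22.9 CPM in the ILC1/3P libraries. The ILC1/3P libraries were above the others, and the change against ILCP of 1.93 ± 0.73 (adjusted p = 0.0987) did not pass. Pold1, Pold2 and Pole2 changed by -1.06 to -0.75 in ILCP against CLP and by -0.74 to -0.07 in ILC1/3P against CLP.

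Of the 6 clamp and loader genes, 2 rose and 1 fell in ILC1/3P against CLP, 3 rose against ILCP, and 0 were called between ILCP and CLP. Pcna (chr2:132249162-132253314), the sliding clamp, had 228, 351 and 376 CPM in the CLP libraries, 229.7, 272 and 294 CPM in the ILCP libraries, and 1433 and 1503 CPM in the ILC1/3P libraries. Both ILC1/3P libraries lay above every other library. Pcna was 4.62-fold higher than in CLP, a log2 fold change of 2.21 ± 0.26 (adjusted p = 0.000153), and 2.47 ± 0.26 against ILCP (adjusted p = 0.00029). Pcna has 2 symbol-named pseudogene copies, so reads that they share are uncertain. Among the loader genes, Rfc4 (chr16:23113943-23127737) had 131, 199 and 234 CPM in the CLP libraries, 155, 189 and 166 CPM in the ILCP libraries, and 855 and 401 CPM in the ILC1/3P libraries. No CLP or ILCP library reached either ILC1/3P library. It rose against CLP by 1.74 ± 0.34 (adjusted p = 0.00323) and against ILCP by 1.88 ± 0.34 (adjusted p = 0.0037), and its ILC1/3P libraries differed by more than 2-fold.

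Rfc3 (chr5:151642756-151651242) had 119.7, 170.2 and 179 CPM in the CLP libraries, 74.2, 76.8 and 109 CPM in the ILCP libraries, and 262 and 250.3 CPM in the ILC1/3P libraries. The groups did not overlap, with ILCP lowest and ILC1/3P highest. It rose in ILC1/3P against ILCP by 1.56 ± 0.28 (adjusted p = 0.0035), and against CLP its change of 0.71 ± 0.28 (adjusted p = 0.0866) did not pass. Rfc2 (chr5:134581366-134601805) had 425, 421 and 481 CPM in the CLP libraries, 334, 244 and 277 CPM in the ILCP libraries, and 275 and 227 CPM in the ILC1/3P libraries. Its groups followed a different order from Rfc3 and Rfc4, with CLP above all others and ILCP overlapping ILC1/3P. Rfc2 fell against CLP, at -0.82 ± 0.24 (adjusted p = 0.03), a call lost without CLP replicate 2 or 3 or either ILC1/3P library, and with a length and GC correction (highest adjusted p = 0.218). Rfc1, the large subunit, and Rfc5 were called in no comparison.

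Of the 3 subunits of replication protein A, which coats single-stranded DNA, Rpa3 alone was called. Rpa3 (chr6:8255936-8259173) had 116, 164 and 199.8 CPM in the CLP libraries, 195, 296 and 203 CPM in the ILCP libraries, and 822 and 844 CPM in the ILC1/3P libraries. No other library came near the ILC1/3P pair. It was 5.21-fold higher than in CLP, or 2.38 ± 0.29 (adjusted p = 0.000168) on the log2 scale, and 1.85 ± 0.28 (adjusted p = 0.0018) against ILCP. Rpa1 and Rpa2 changed by -0.07 ± 0.61 and 0.51 ± 0.28 against CLP and were called in no comparison. Lig1 (chr7:13277283-13311433), the ligase that seals Okazaki fragments, had 50.3, 30.9 and 30.2 CPM in the CLP libraries, 18.3, 14.5 and 15.2 CPM in the ILCP libraries, and 71.7 and 53.2 CPM in the ILC1/3P libraries. All ILCP libraries lay below all others. Lig1 rose in ILC1/3P against ILCP by 1.96 ± 0.41 (adjusted p = 0.00765), a call lost with library size only (adjusted p = 0.0603). Fen1, the flap nuclease of the same step, was not called.

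Of the 5 nucleotide synthesis genes, the 3 that make or protect thymidine nucleotides rose in ILC1/3P and the ribonucleotide reductase subunits were not called. That was 60.0% in both comparisons, beside 11.8% of all genes against CLP and 8.06% against ILCP. Tyms (chr5:30058202-30073617), thymidylate synthase, had 64.4, 101 and 84.8 CPM in the CLP libraries, 60.4, 81.9 and 98.8 CPM in the ILCP libraries, and 599 and 709 CPM in the ILC1/3P libraries. The ILC1/3P libraries lay far above all others, and the CLP and ILCP libraries overlapped. It was 7.84-fold higher than in CLP, the largest called change among members in that comparison, with a log2 fold change of 2.97 ± 0.29 (adjusted p = 4.76e-05), and 3.02 ± 0.29 (adjusted p = 0.000174) against ILCP. Tyms has 1 symbol-named pseudogene copy. Tk1 (chr11:117815526-117826092), thymidine kinase, had 43.2, 55.7 and 25.2 CPM in the CLP libraries, 45.2, 6.91 and 29.7 CPM in the ILCP libraries, and 131 and 213 CPM in the ILC1/3P libraries. Its ILC1/3P libraries were above every other library. Tk1 rose by 2.06 ± 0.60 (adjusted p = 0.0282) against CLP and by 2.66 ± 0.61 (adjusted p = 0.0126) against ILCP.

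Dut (chr2:125247190-125258608), the enzyme that removes dUTP, had 222, 202 and 251 CPM in the CLP libraries, 130.0, 179 and 164 CPM in the ILCP libraries, and 342 and 637 CPM in the ILC1/3P libraries. The 3 groups did not overlap, with ILCP lowest and ILC1/3P highest. Dut rose by 1.12 ± 0.29 (adjusted p = 0.0152) against CLP and by 1.64 ± 0.29 (adjusted p = 0.00336) against ILCP. The Tk1 call against CLP was lost when CLP replicate 1 or 3 or ILC1/3P replicate 2 was left out, and that against ILCP when ILCP replicate 3 or ILC1/3P replicate 2 was (with adjusted p of up to 0.159 and 0.0762). The Dut call against CLP was lost when CLP replicate 2 or ILC1/3P replicate 2 was left out (adjusted p of up to 0.245), and library size only also ended the Tk1 calls and that of Dut against CLP. Rrm1 and Rrm2, the large and small subunits of ribonucleotide reductase, changed in ILC1/3P against CLP by -0.98 ± 0.36 (adjusted p = 0.075) and 0.63 ± 0.48 (adjusted p = 0.373).

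Chaf1a and Chaf1b are subunits of chromatin assembly factor 1, which places histones behind the fork. Chaf1b (chr16:93883901-93906115) had 133, 69.9 and 76.8 CPM in the CLP libraries, 48.5, 49.2 and 72.4 CPM in the ILCP libraries, and 30.1 and 18.9 CPM in the ILC1/3P libraries. Both ILC1/3P libraries were below all others, and the CLP and ILCP libraries overlapped. It fell in ILC1/3P against CLP, at -1.92 ± 0.42 (adjusted p = 0.00662), the largest called fall among members, and the call did not survive leaving out ILC1/3P replicate 2 (adjusted p = 0.0552). Chaf1a had 8.50, 0 and 3.41 CPM in the CLP libraries, 1.71, 1.24 and 0.704 CPM in the ILCP libraries, and 13.5 and 2.84 CPM in the ILC1/3P libraries. The CLP libraries spanned those of ILCP, both ILC1/3P libraries lay above the ILCP libraries, and Chaf1a was not called.

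Ratios between subunits of the same complex are given for 6 pairs that were chosen after the values were seen, so they are a description with no test. Rfc4 over Rfc2 was 0.307 to 0.486 in CLP, 0.464 to 0.778 in ILCP and 1.77 to 3.11 in ILC1/3P, as a ratio of CPM within each library. Prim1 over Prim2 was 1.79 to 2.55, 1.33 to 1.90 and 6.45 to 12.8 in the same order. In both pairs the ILC1/3P libraries lay above all others. Mcm5 over Mcm6 was 0.237 to 0.265, 0.186 to 0.330 and 0.846 to 0.896, and Rpa3 over Rpa1 was 1.51 to 8.17, 1.76 to 5.45 and 9.83 to 41.3. Rrm2 over Rrm1 was 0.557 to 1.03, 0.378 to 1.94 and 1.82 to 2.54, with ILC1/3P overlapping ILCP. A ratio of CPM within a library does not depend on the scaling.

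**Figure D4:**
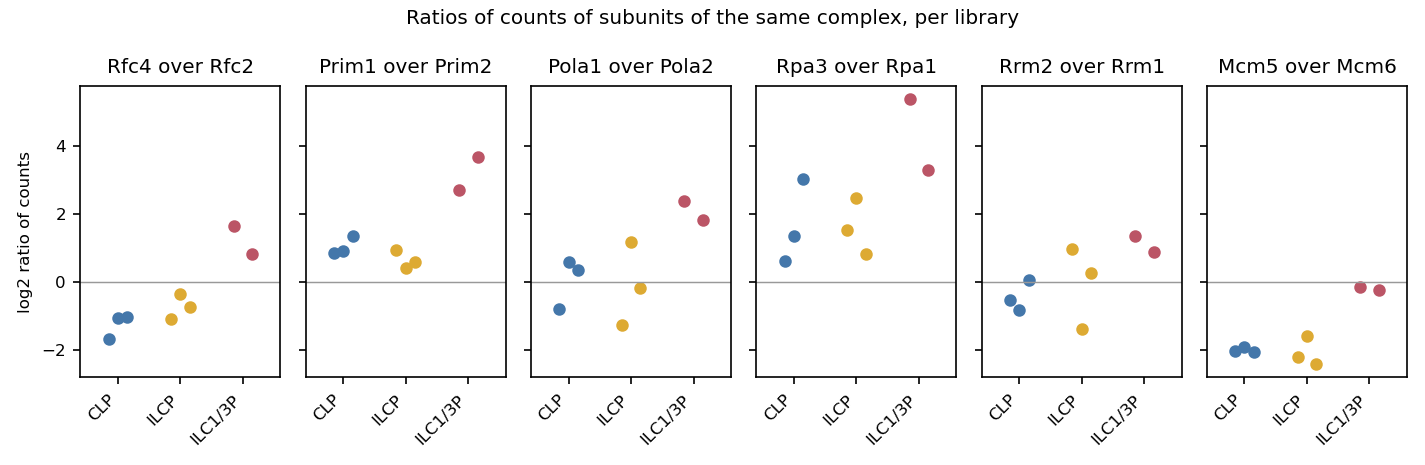
Log2 ratio of the counts of 6 pairs of subunits within each library, by population, with points for libraries. In every pair but Rrm2 over Rrm1, both ILC1/3P points lie above all CLP and ILCP points.

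Per transcript length, as the authors' FPKM, Rpa3 had the highest mean of the 43 genes in every group (133 in CLP, 188 in ILCP and 438 in ILC1/3P), and Mcm10 the lowest (0.839, 0.331 and 0.597). Pcna reached a mean of 102, 83.3 and 297 FPKM, and Orc6 99.3, 87.3 and 198 FPKM. The median of the members' mean FPKM was 18.1 in CLP, 12.2 in ILCP and 10.9 in ILC1/3P. These FPKM do not carry the TMM scaling of the CPM, whose factors were 0.671 to 0.753 in ILC1/3P. The members' share of counts, a sum without regard to transcript length, does not carry that scaling either. The 2 measures ordered the groups differently: this median was lowest in ILC1/3P, while the members' share of counts was lowest in ILCP. The reason for the difference was not tested.

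Members called higher in ILC1/3P than in CLP had shorter transcripts at the median than the other members. Their longest annotated transcript had a median of 1734 bases, against 3293 bases for members not called and 4355 bases for those called lower. Of members with transcripts of at most 2291 bases, 6 of 12 were called higher, against 3 of 21 with 2292 to 3985 bases and 1 of 10 with 3986 or more. Among all genes tested, 21.0%, 8.45% and 6.18% were called higher in those 3 classes, which split the genes evenly, so the shortest class had the largest share called among all genes too. The called member of the longest class was Pola1, with 5346 bases. With an offset for length and GC content in the fit, 15 members were called higher and 2 lower against CLP, and 20 higher and 0 lower against ILCP. The shares of all genes called with the offset are not given here. The member median was 0.85 against CLP and 1.40 against ILCP, where the medians of all genes were 0.07 and 0.05. Its distance from the median of all genes was 0.78 and 1.35, beside 0.70 and 1.24 in the main fit. The part of transcript length in the calls was not otherwise tested.

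**Figure D5:**
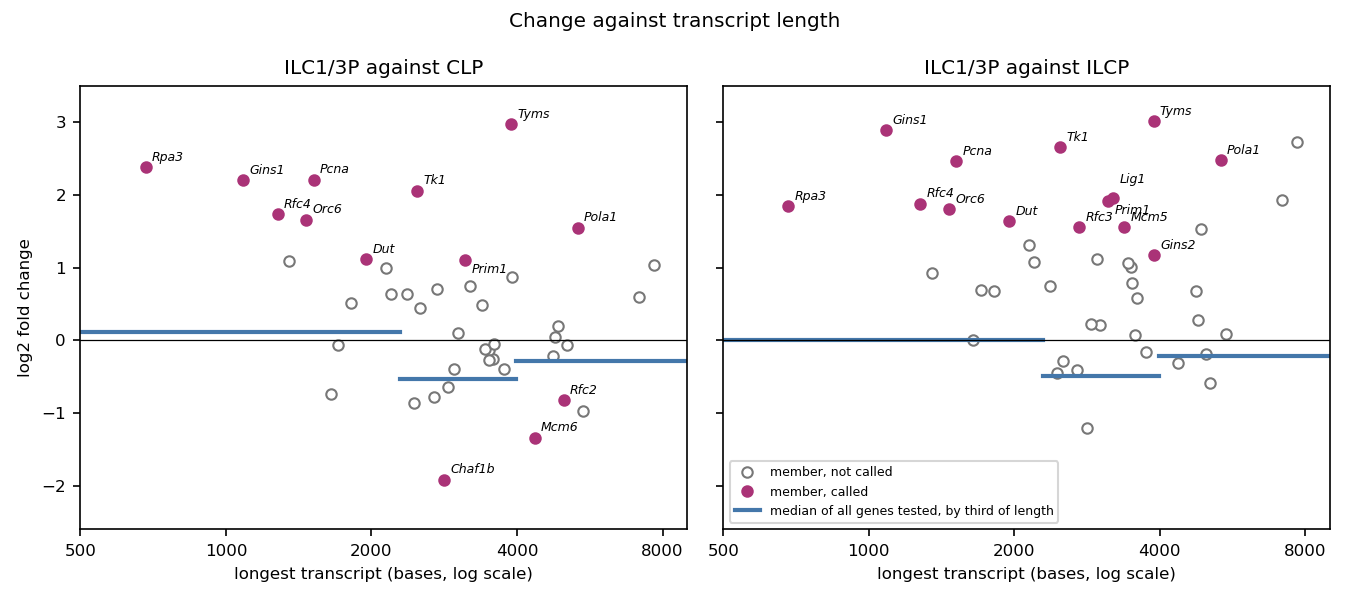
Log2 fold change of each of the 43 genes against the length of its longest transcript (log axis), for ILC1/3P against CLP and against ILCP, with filled points for called genes and blue lines for the median of all genes in each of 3 length classes. Called genes with the shortest transcripts (Rpa3, Gins1, Rfc4, Orc6 and Pcna) sit at log2 fold changes of 1.66 to 2.38 against CLP.

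Libraries of a group differed for some members. The 2 ILC1/3P libraries were more than 2-fold apart in 9 members, with Orc1, Cdc6, Cdc45, Gins3, Prim2, Pole2, Rfc4 and Chaf1a higher in replicate 1 and Rpa1 higher in replicate 2. Of all genes, 22.2% were more than 2-fold higher in replicate 1 and 18.6% in replicate 2. ILCP replicate 2 was more than 2-fold below both other ILCP libraries for Orc2, Cdc45, Mcm10, Pola2, Rrm2 and Tk1, as were 13.3% of all genes. Exons of 16 members overlap another gene, and the use of strand is not given in the sources used here, so their values are uncertain: Orc1, Orc2, Orc6, Mcm7, Cdc45, Gins2, Pole, Pole2, Rfc2, Rfc4, Rfc5, Rpa1, Fen1, Lig1, Tk1 and Chaf1a.

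Of 38 other replication genes, 0 rose and 1 fell from CLP to ILCP. From CLP to ILC1/3P 10 rose (26.3%) and 1 fell (2.63%), and from ILCP to ILC1/3P 13 rose (34.2%) and 1 fell (2.63%). In the comparisons of ILCP with CLP, ILC1/3P with CLP and ILC1/3P with ILCP, 3.91%, 11.8% and 8.06% of all genes were called higher. The shares called lower were 2.87%, 11.7% and 8.25%. These shares are the background of each further list as well. Gmnn, which encodes the licensing inhibitor geminin, rose in ILC1/3P by 2.51 ± 0.24 (adjusted p = 3.78e-05) against CLP, and Pclaf, a Pcna-binding factor, by 2.47 ± 0.28 (adjusted p = 0.000113). Asf1b, a histone chaperone, rose by 3.09 ± 0.28 (adjusted p = 2.54e-05). Of 37 other nucleotide metabolism genes tested, 8 rose and 8 fell in ILC1/3P against CLP (21.6% each), with Dtymk, the thymidylate kinase, at 1.53 ± 0.22 (adjusted p = 0.000537). Between ILCP and CLP 1 of them was higher and 1 lower (2.7% each), and between ILC1/3P and ILCP 6 and 4 (16.2% and 10.8%).

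Of 33 genes of G1 to S control, 3 rose (9.09%) and 0 fell in ILCP against CLP. In ILC1/3P, 6 rose and 7 fell against CLP (18.2% and 21.2%), and 4 and 3 against ILCP (12.1% and 9.09%). Ccna2, the S phase cyclin, rose by 2.27 ± 0.34 (adjusted p = 0.000623) and the G1 kinase Cdk4 fell, at -1.68 ± 0.23 (adjusted p = 0.000347), in ILC1/3P against CLP. Rbl2, a pocket protein of quiescent cells, rose in ILCP by 2.27 ± 0.29 (adjusted p = 0.000475) and in ILC1/3P by 2.59 ± 0.31 (adjusted p = 0.000166), both against CLP. Of 32 replication checkpoint and recombination genes, 0 and 0 were called in ILCP against CLP. In edgeR, 4 of them had an unadjusted p under 0.05, beside 20.1% of all genes. In each ILC1/3P comparison 2 rose and 1 fell (6.25% and 3.12%), below the shares of all genes. Of 42 mitosis genes, 0 were called between ILCP and CLP (4 at an unadjusted p under 0.05 in edgeR, beside 20.1% of all genes). ILC1/3P had 17 higher (40.5%, beside 11.8% of all genes) and 0 lower against CLP, and 14 (33.3%, beside 8.06%) and 0 against ILCP. The median change in ILC1/3P against CLP was 0.26 for the other replication genes, -0.50 for the nucleotide metabolism genes, 0.58 for G1 to S control, 0.00 for checkpoint and recombination and 1.39 for mitosis, beside -0.25 for all genes tested. Cdk1, the mitotic kinase, rose by 4.63 ± 0.31 (adjusted p = 3.32e-06) against CLP.

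Markers of other cell types differed between the groups. Summed over 12 erythroid markers, CPM was 405 to 559 in CLP, 124 to 164 in ILCP and 32.4 to 41.6 in ILC1/3P, and the markers at 0 included Epor and Slc4a1 in CLP, Klf1 and Slc4a1 in ILCP, and Alas2, Klf1, Epor and Slc4a1 in ILC1/3P. The 12 myeloid markers summed to 686 to 920 CPM in CLP, 13.4 to 20.6 in ILCP and 46.8 to 78.5 in ILC1/3P, with Elane and Ctsg at 0 in ILCP and ILC1/3P. The 8 B lineage markers summed to 2646 to 3413 CPM in CLP, 155 to 191 in ILCP and 129 to 170 in ILC1/3P, where Pax5, Igll1 and Blnk were at 0. These 3 sums were highest in CLP, as were the mean levels of Mcm6, Rfc2 and Chaf1b.

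The mast cell and basophil sum and the megakaryocyte sum were highest in ILCP, where the replication genes took their smallest share. The 6 mast cell and basophil markers summed to 44.9 to 87.5 CPM in CLP, 584 to 765 in ILCP and 211 to 292 in ILC1/3P, with Mcpt8, Ms4a2 and Fcer1a at 0 in all 3 groups. The 6 megakaryocyte markers summed to 19.9 to 42.3 CPM in CLP, 45.7 to 62.7 in ILCP and 14.3 to 36.9 in ILC1/3P, with Ppbp at 0 in each. The 7 endothelial and stromal markers summed to 52.8 to 88.1 CPM in CLP, 94.1 to 124 in ILCP and 57.2 to 113 in ILC1/3P, with Cdh5, Col3a1 and Dcn at 0 in each, so ILCP lay above CLP and overlapped ILC1/3P. The 7 hepatocyte markers summed to 72.7 to 91.5 CPM in CLP, 28.2 to 74.0 in ILCP and 26.0 to 38.8 in ILC1/3P, with CLP overlapping ILCP. The part of any of these lists in the levels of the replication genes was not tested.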

How the data were processed

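Bulk RNA-seq libraries of 3 sorted populations were analysed, with 3 libraries of CLP, 3 of ILCP and 2 of ILC1/3P, grouped by the sample titles. Per the labels' protocols, cDNA was made in cell lysate with a SMARTer Ultra Low RNA kit, amplified by PCR and sequenced (NovaSeq6000). Raw counts per gene, as deposited, are whole numbers, and further columns hold FPKM that the authors computed. Per the submitters' processing notes, reads were placed on mm10. What aligned and counted the reads, with which annotation and strand setting, is not given in the sources used here.

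Tests used edgeR 4.0.16 under R 4.3.3 (filterByExpr, TMM, robust quasi-likelihood fit with 1 mean per group over all 8 libraries, two-sided), with p-values adjusted by Benjamini-Hochberg over all 13436 genes tested and called under 0.05. Standard errors came from the F statistic. CPM are counts scaled by the TMM-adjusted library size to a common total. Total counts per library set the precision, and the biological coefficient of variation was 0.679. Exon overlaps and transcript lengths came from GENCODE M21, in which 36 of 43 members had an identical locus. DESeq2 1.42.0, other scalings and filters, a replicate block, a length and GC offset and leaving out each library were the alternatives. The programs were tested on simulated data.

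The members, gene lists, tests and alternatives were chosen with earlier results of these data known. Values in every library were given for members called in any comparison and for the member with the smallest p of a role without one, and up to 4 genes of each further list with the smallest p could be named. One listed gene, Adss2, was not matched in the table.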

Additional observations from a re-analysis of the deposited data

How the results depend on the processing

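The count of members lower in ILCP than in CLP depended on the processing: it was 2 as reported, 0 with library size only, 7 with no filter, 10 with the DESeq2 Wald test (which called 5.91% of all genes lower), 1 with only the 2 groups compared, and 0 to 3 with 1 library left out, with 0 members higher throughout those. Library size only called 2.79% of all genes lower there. Shares of all genes are given here only for the main fit, library size only, DESeq2 and the replicate block, so counts under the other alternatives have no background. The member median for ILCP against CLP ran from -0.74 to -0.47 with 1 library left out. For ILC1/3P against CLP, library size only gave 6 higher, 6 lower and a median of -0.22, beside 7.04% and 20.9% of all genes and a median of -0.93. The length and GC offset gave a median of 0.85, beside 0.07 for all genes. Leaving out 1 library gave 8 to 11 higher, 1 to 3 lower and medians of -0.09 to 0.60. For ILC1/3P against ILCP, library size only gave 2 lower and a median of 0.38, beside 15.9% of all genes lower and a median of -0.86. No filter and DESeq2 gave 1 lower each, and DESeq2 called 13.2% of all genes lower. The length and GC offset gave a median of 1.40, beside 0.05 for all genes. Leaving out 1 library gave 13 to 15 higher, 0 to 1 lower and medians of 0.78 to 1.17. Where ILC1/3P keeps 1 library, that library is assumed to vary like the other groups. The cause of these shifts was not tested. Over single members, no fitted change that was called reversed its sign under the alternatives run. The 2 libraries of ILC1/3P limit the precision of both comparisons that use them.

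Whether replicate numbers pair the libraries could not be settled. Deviations of same-numbered libraries correlated between -0.033 and 0.0867, and those of different-numbered libraries between -0.093 and 0.033. The highest values were of same-numbered pairs, CLP 1 with ILCP 1 (0.0867) and CLP 2 with ILCP 2 (0.0566). Deviations of the ILC1/3P pair mirror each other by construction, so that group adds little to the check. With the replicate block, 0 members were higher and 0 lower in ILCP against CLP (median -0.65), where 3.31% and 2.2% of all genes were. The block gave 11 and 3 in ILC1/3P against CLP (median 0.37), beside 10.4% and 9.17% of all genes. In ILC1/3P against ILCP it gave 12 and 0 (median 1.01), beside 7.03% and 6.02% of all genes. The calls lost under the block were Mcm2 and Mcm6 in ILCP against CLP, Tk1 in ILC1/3P against CLP, and Gins2 and Tk1 in ILC1/3P against ILCP.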
